A study of Mus musculus with 6 samples.

Results

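The 9 genes described here encode regulators of the integrated stress response: Atf3, Atf4, Atf5, Ddit3, Ddit4, Trib3, Chac1, Sesn2 and Ppp1r15a. They were named by symbol and not picked by a test on their values, but with earlier results of these data known. They were found by Ensembl identifier in the expression table, where they are 9 of 22246 genes. The series holds 6 RNA sequencing libraries of cells labelled HL-1, with the strain given as C57BL/6 and the tissue as heart. HL-1 is an established mouse line of atrial cardiomyocyte origin. In 3 libraries the cells carried a control shRNA (short hairpin RNA) and in 3 an shRNA directed at Smyd4, a SET and MYND domain protein. No vector, dose or time after delivery is given in the sources used here, and the labels name no separate cultures, so the p-values below may rest on technical spread alone. Levels are in FPKM, here fragment counts divided by gene length and by a size factor of each library, which allows genes of different length to be compared.

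Cells under stress phosphorylate the translation factor eIF2, through kinases that sense unfolded protein, amino acid shortage, haem shortage or double-stranded RNA. Bulk protein synthesis then falls while the mRNA of Atf4 is translated more, so that ATF4 protein can change with little change of its mRNA. ATF4, with partners of the basic leucine zipper (bZIP) family, induces genes of amino acid supply and the transcription factors Atf3, Atf5 and Ddit3. Among its other targets, Trib3 binds and restrains ATF4 and AKT, Ddit4 and Sesn2 restrain the growth kinase complex mTORC1, and Chac1 degrades glutathione. Ppp1r15a directs a phosphatase to eIF2 and so ends the response.

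The targeted gene and the identity of the cells were checked first. Smyd4 mRNA stood at 12.5, 12.8 and 13.5 FPKM in the control libraries and at 12.6, 12.3 and 11.9 FPKM in the other group, and these ranges overlapped (limma, Benjamini-Hochberg adjusted p = 0.173; exact two-sided permutation p = 0.2, where 0.1 is the smallest possible). The change of the Smyd4 mean was -5.07%, and the 95% confidence interval of the limma change ran from -10.7% to 1.40%. A loss of Smyd4 mRNA larger than this interval allows was thus not seen, and the mRNA does not bear out the label. Whether Smyd4 protein differed was not tested. The libraries labelled Smyd4 shRNA are called the labelled libraries below. Of 14 atrial cardiomyocyte markers 12 were in the table, and 7 of these averaged under 0.1 FPKM, among them the contractile genes Myh6, Actc1 and Myl7. The atrial list itself differed between the groups, with a summed level of 20.5 to 22.2 FPKM in control and 28.4 to 30.2 FPKM in labelled libraries. Of its 4 tested members 3 were higher, Gata4 (8.09 to 8.88 FPKM), Nkx2-5 (3.57 to 7.68 FPKM) and Tnnt2 (7.11 to 11.7 FPKM). Nppb (2.15 to 0.484 FPKM) was lower, and it reached the mean of 1 FPKM needed for testing only through the control libraries. Markers of other cells differed as well. The summed level of the skeletal muscle list was 167 to 171 FPKM in control and 113 to 116 FPKM in labelled libraries. Most of it was Des (137 to 102 FPKM), beside Myod1 (18.8 to 5.31 FPKM) and Myf5 (8.68 to 4.83 FPKM), while Myog averaged 0.246 and 0.0196 FPKM. The smooth muscle list summed to 320 to 334 and 214 to 224 FPKM. The fibroblast list summed to 239 to 246 and 270 to 282 FPKM, but 2 of its 5 tested members were higher, among them Col1a1 (37.6 to 69.3 FPKM), and 2 lower, Dcn (26.3 to 1.72 FPKM) and Pdgfra (4.35 to 2.94 FPKM). Endothelial markers summed to at most 0.700 FPKM in any library. The macrophage list summed to 29.2 to 30.6 and 21.4 to 23.2 FPKM, most of it Cd14 (27.9 to 18.6 FPKM); Cd68 stood at 1.96 and 1.72 FPKM and Lyz2 at 0.228 and 1.69 FPKM, while Ptprc and Adgre1 were at 0 in every control library and averaged 0.00615 and 0.00992 FPKM in the labelled ones. Contractile genes near 0 beside Myod1 and Myf5 do not bear out the atrial cardiomyocyte label, although Gata4, Nkx2-5 and Tnnt2 were present. Whether the cells are HL-1 was not tested. The part of such cell states in the results was not tested, and in bulk RNA fewer cells of a type and less RNA per cell cannot be told apart. The reads assigned to genes, recovered as described below, numbered 20755849 to 26387605 per library, which is a lower bound.

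The regulators split into 3 groups. In the labelled libraries Atf5, Trib3, Chac1, Ddit4, Ddit3 and Sesn2 rose, Atf3 and Ppp1r15a fell, and Atf4 itself did not pass the test. Thus 8 of 9 passed an adjusted p of 0.05 in limma, against 48.3% of the 11325 tested genes. The 6 rises compare with 25.1% of tested genes called higher, and the 2 falls among 9 lie near the 23.3% called lower. The median log2 change of the 9 was 0.38, against 0.02 over all tested genes. All 9 had groups whose values did not overlap, which was the case for 57.8% of tested genes.

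**Figure D1:**
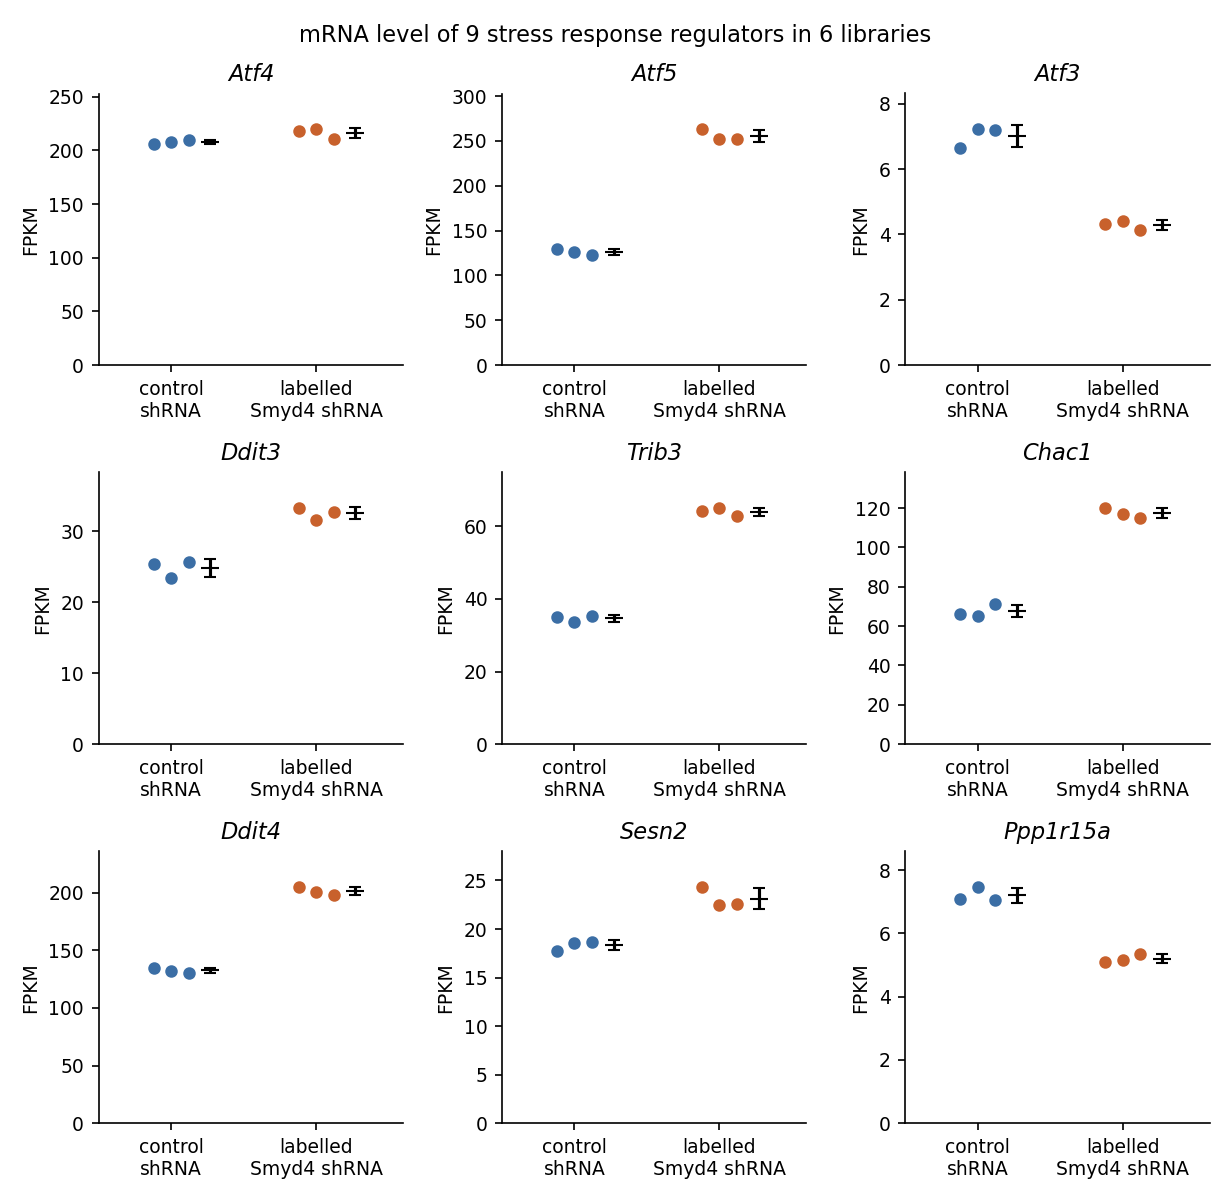
FPKM (vertical axis, from 0) of each of the 9 regulators in the 3 control libraries (blue) and the 3 labelled libraries (orange), with the mean and SD of each group in black. Atf4 stays between 206 and 220 FPKM in all 6 libraries, Atf5 doubles, and Atf3 and Ppp1r15a are lower in the labelled libraries.

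Atf4, the transcription factor at the centre of the response (chromosome 15, 80255184 to 80257541 on GRCm38), was the most abundant of the 9 in control libraries. Its level was 206, 208 and 210 FPKM there and 218, 220 and 211 FPKM in the labelled libraries. The lowest labelled value lay just above the highest control value, at 210.5 against 209.9 FPKM. The mean was 3.97% higher, which is 0.06 on the log2 scale (SE 0.03; limma, adjusted p = 0.110). Its 95% confidence interval, from -0.00 to 0.12 on the log2(FPKM + 0.5) scale, reaches from 0.26% below to 8.32% above control. At least 7515 reads lay behind each value.

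Atf5, a bZIP factor that like Atf4 is controlled at translation and is also induced in mRNA by the response (chromosome 7, 44812256 to 44816658), rose most. Control libraries held 129, 126 and 122 FPKM and labelled libraries 263, 252 and 252 FPKM, so every labelled library was about double every control. The fold between means was 2.03, and the log2 change was 1.02 (SE 0.03; limma, adjusted p = 1.7e-07). Only 43 of the 11325 tested genes were called higher with a larger rise. An exonic stretch of 82 bases is shared with Nup62, a nuclear pore gene on the opposite strand at 32.2 FPKM, and the labels do not say whether reads were counted by strand.

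Ddit3 encodes CHOP, a bZIP factor that pairs with C/EBP proteins and is tied to cell death in prolonged stress (chromosome 10, 127290774 to 127296288). Its level was 25.4, 23.4 and 25.6 FPKM in control and 33.3, 31.6 and 32.6 FPKM in labelled libraries. This rise of 31.0% was much smaller than that of Atf5, with a log2 change of 0.38 (SE 0.04; limma, adjusted p = 0.000145). Its exons share 68 bases with Mars, the methionyl-tRNA synthetase gene on the opposite strand, which itself rose from 78.2 ± 2.13 to 108 ± 3.68 FPKM (SD, n = 3). A second protein-coding entry named Ddit3, on the same strand, shares 105 bases with these exons and is not in the expression table. Gm4189, on the opposite strand, shares 13 bases. How much of these shared stretches entered the value of Ddit3 was not tested.

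After Atf5, the largest rises were those of Trib3 and Chac1. Trib3, a pseudokinase (chromosome 2, 152337422 to 152344032), went from 35.01, 33.6 and 35.3 FPKM to 64.2, 65.1 and 62.9 FPKM. That is 1.85-fold, or 0.88 on the log2 scale (SE 0.03; limma, adjusted p = 2.6e-07). Chac1, a gamma-glutamylcyclotransferase that breaks down glutathione (chromosome 2, 119351229 to 119354381), went from 66.3, 65.4 and 71.4 FPKM to 120.1, 117 and 115 FPKM. Its fold was 1.73 and its log2 change 0.79 (SE 0.04; limma, adjusted p = 1.5e-06). For both genes the lowest labelled library stood far above the highest control library.

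The inhibitors of mTORC1 rose by less. Ddit4, also called REDD1, which acts through the TSC complex (chromosome 10, 59949675 to 59951770), stood at 135, 132 and 130.3 FPKM in control and 205, 201 and 198 FPKM in labelled libraries. The rise was 51.9%, or 0.60 on the log2 scale (SE 0.03; limma, adjusted p = 9.0e-07). Sesn2, a leucine sensor that binds the GATOR2 complex (chromosome 4, 132492032 to 132510501), stood at 17.8, 18.6 and 18.7 FPKM in control and 24.3, 22.4 and 22.6 FPKM in labelled libraries. Its rise of 26.1% was the smallest of the 6, or 0.33 on the log2 scale (SE 0.04; limma, adjusted p = 0.000296).

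In the opposite direction, Atf3 and Ppp1r15a, the least abundant of the 9, fell. Atf3, a bZIP factor that mostly represses transcription and is also an immediate early gene (chromosome 1, 191170296 to 191218039), went from 6.64, 7.23 and 7.19 FPKM to 4.32, 4.41 and 4.13 FPKM. The mean was 39.0% lower, or -0.65 on the log2 scale (SE 0.05; limma, adjusted p = 1.9e-05), on 184 to 393 reads per library. Ppp1r15a, also called GADD34 (chromosome 7, 45522922 to 45526268), went from 7.10, 7.47 and 7.05 FPKM to 5.09, 5.17 and 5.36 FPKM. Its mean was 27.8% lower, or -0.43 on the log2 scale (SE 0.04; limma, adjusted p = 7.5e-05), on 325 to 524 reads per library. Both are known targets of ATF4, and their direction was opposite to that of the other 6 called regulators.

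**Figure D2:**
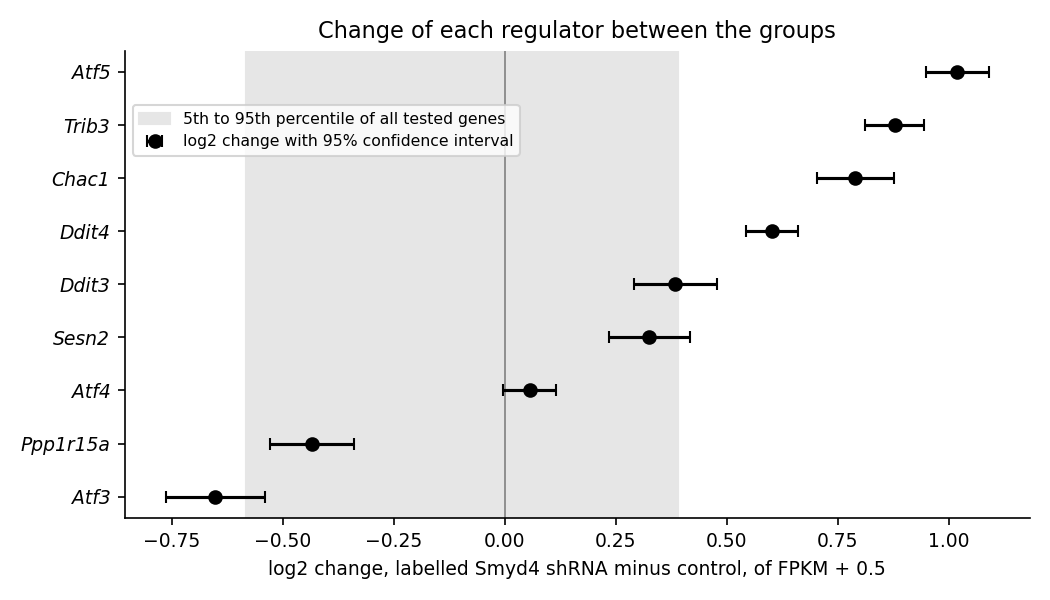
Log2 change of FPKM + 0.5 between labelled and control libraries (horizontal axis) for each regulator, as points with 95% confidence intervals; the grey band spans the 5th to 95th percentile of all tested genes, -0.58 to 0.39. Atf5, Trib3, Chac1 and Ddit4 lie above the band, Atf3 below it, and Atf4 near 0.

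The order of the levels changed at the top. In control libraries it ran Atf4, Ddit4, Atf5, Chac1, Trib3, Ddit3, Sesn2, Ppp1r15a, Atf3. Neighbours in that order did not overlap, except Ppp1r15a and Atf3, at 7.21 ± 0.230 and 7.02 ± 0.333 FPKM (SD, n = 3); Ddit4 and Atf5 stood at 132 ± 2.17 and 126 ± 3.45 FPKM. In labelled libraries Atf5 came first at 256 ± 6.63 FPKM, ahead of Atf4 at 216 ± 5.02 and Ddit4 at 201 ± 3.49 FPKM, and the other 6 kept their places. In the labelled libraries no neighbours overlapped, Ppp1r15a and Atf3 included. Between the libraries of a group the coefficient of variation of the 9 genes ran from 0.882% (Atf4, control) to 5.01% (Ddit3, control).

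Setting each gene against Atf4 within a library removes any scaling factor that both share. The ratio of Atf5 to Atf4 was 0.626, 0.609 and 0.583 in control and 1.21, 1.14 and 1.20 in labelled libraries, so Atf5 mRNA passed that of Atf4 in every labelled library. Ddit4 moved from 0.637 ± 0.0160 to 0.931 ± 0.0169 of the Atf4 level (SD, n = 3). Chac1 moved from 0.326 to 0.543, Trib3 from 0.167 to 0.296, Ddit3 from 0.119 to 0.150 and Sesn2 from 0.0882 to 0.107. Atf3 went from 0.0338 to 0.0198 and Ppp1r15a from 0.0347 to 0.0241. For each of the 8 ratios the groups did not overlap, and each exact two-sided permutation test gave p = 0.1, the smallest value that 3 against 3 allows, also after adjustment over the 8.

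**Figure D3:**
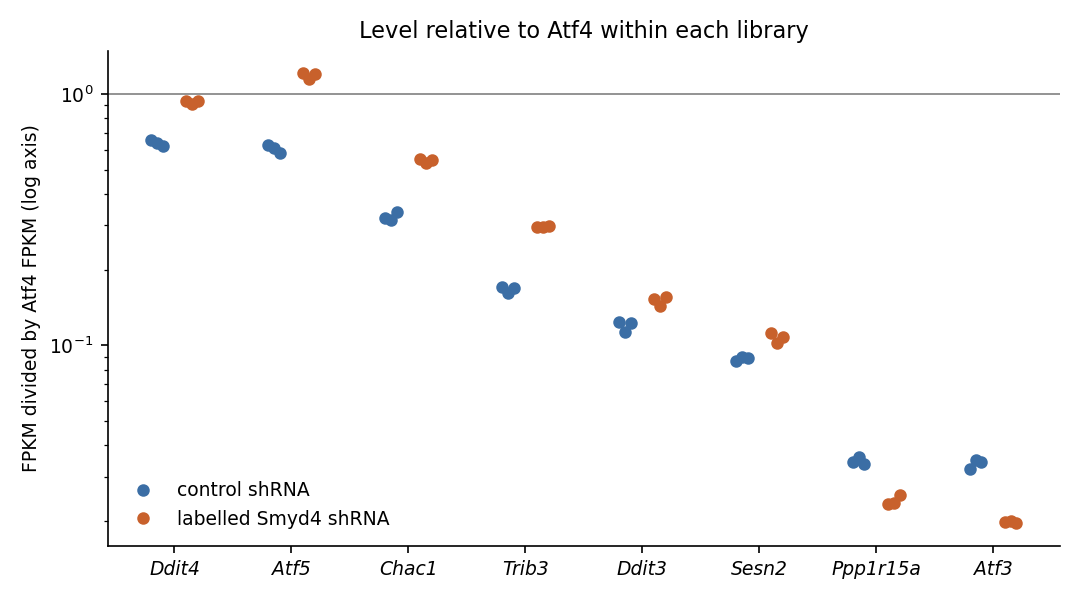
FPKM of 8 regulators divided by the FPKM of Atf4 in the same library (vertical log axis), with 3 control libraries in blue and 3 labelled libraries in orange. Atf5 crosses the line at 1, while Ppp1r15a and Atf3 move down.

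The sequences before the start sites are shown because ATF4 and its partners bind short DNA motifs and the regulators moved in opposite directions. RefSeq promoters (GRCm38.p6) matched all 9 genes, with 10 starts since Atf5 has 2. The 250 bases before each start were searched on both strands for TGATGNAA, the core of the element bound by ATF4 with C/EBP partners, for TGACGTNA, the cyclic AMP response element type bound by ATF and CREB dimers, and for the hybrid TGACGCAA. Their letters differ, so no 2 of them can begin at the same base of 1 strand. They were found in 3.45%, 2.52% and 0.438% of the 32851 promoters of that table. These motifs were written down after the promoters and the changes had been seen. Capitals mark the match, and each line reads 5′ to 3′ on the strand of the gene.
Chac1, chr2:119351027-119351078, plus strand, TGATGNAA match on the other strand: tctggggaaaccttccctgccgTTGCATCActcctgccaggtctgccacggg
Chac1, chr2:119350992-119351021, plus strand, TGACGCAA: TGACGCAAtctgactcgcccttgctgcatg
Atf3, chr1:191183414-191183465, minus strand, TGATGNAA match on the other strand: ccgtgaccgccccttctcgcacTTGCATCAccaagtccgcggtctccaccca
Atf3, chr1:191183334-191183365, minus strand, TGACGTNA match on the other strand: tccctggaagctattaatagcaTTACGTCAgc
Ppp1r15a, chr7:45526269-45526302, minus strand, TGACGTNA: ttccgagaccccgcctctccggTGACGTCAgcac

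Chac1, which rose 1.73-fold, and Atf3, which fell by 39.0%, held the same 8 letters TTGCATCA, which begin 193 and 110 bases before their starts. The 2 regulators that fell, Atf3 and Ppp1r15a, both held a TGACGTNA match close to the start, beginning 10 and 12 bases before it, and none of the other 8 promoters held one in this window. In the promoters of Atf4, Atf5, Ddit3, Ddit4, Sesn2 and Trib3 none of the 3 motifs was found within 250 bases, which says only that these letters are not in the window. The RefSeq start of Trib3, at 152344060, lies outside the gene bounds given above, so its window begins from a start that the gene model used for the position does not hold. The RefSeq start of Atf3, at 191183333, lies well inside the bounds given above, which on this minus strand begin at 191218039. The sequence before that outer bound was not searched, so the Atf3 matches refer to the inner start only. These matches are descriptions of sequence and were not tested against binding.

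The genes that ATF4 is known to induce were counted next, from a list of 44 that left out the 9 regulators. This list too was chosen with earlier results of these data known. In the labelled libraries 40 of 44 rose, 2 fell and 2 did not pass, against 25.1% of all tested genes called higher, and the median log2 change was 0.47. All 10 enzymes of amino acid and one-carbon synthesis rose (median log2 change 0.72), as did 9 of 9 amino acid transporters (median 0.60) and 11 of 11 aminoacyl-tRNA synthetases (median 0.43). Asns, the asparagine synthetase gene, rose from 105 ± 0.596 to 177 ± 2.46 FPKM, and Stc2, which encodes a secreted glycoprotein, from 8.67 ± 0.266 to 17.7 ± 0.108 FPKM (SD, n = 3; limma, adjusted p = 1.7e-07 and 2.6e-07). Atf4 mRNA, for comparison, differed by 0.06 on the log2 scale in the same libraries. The falls were Cebpb and the autophagy gene Map1lc3b, which went from 14.0 to 12.4 FPKM (limma, adjusted p = 0.0190). The Map1lc3b call was lost without control replicate 2 or 3 and without labelled replicate 2 (limma, adjusted p = 0.0616, 0.0629 and 0.0578). Fgf21, a hormone of the response, was at 0.981 ± 0.387 and 1.51 ± 0.278 FPKM and did not pass, nor did Rragc, a GTPase of the mTORC1 pathway, at 26.5 and 26.6 FPKM (limma, adjusted p = 0.0930 and 0.947). Fgf21 reached the mean of 1 FPKM needed for testing only through the labelled libraries. Map1lc3b, Fgf21 and Rragc were named after their values were seen.

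**Figure D4:**
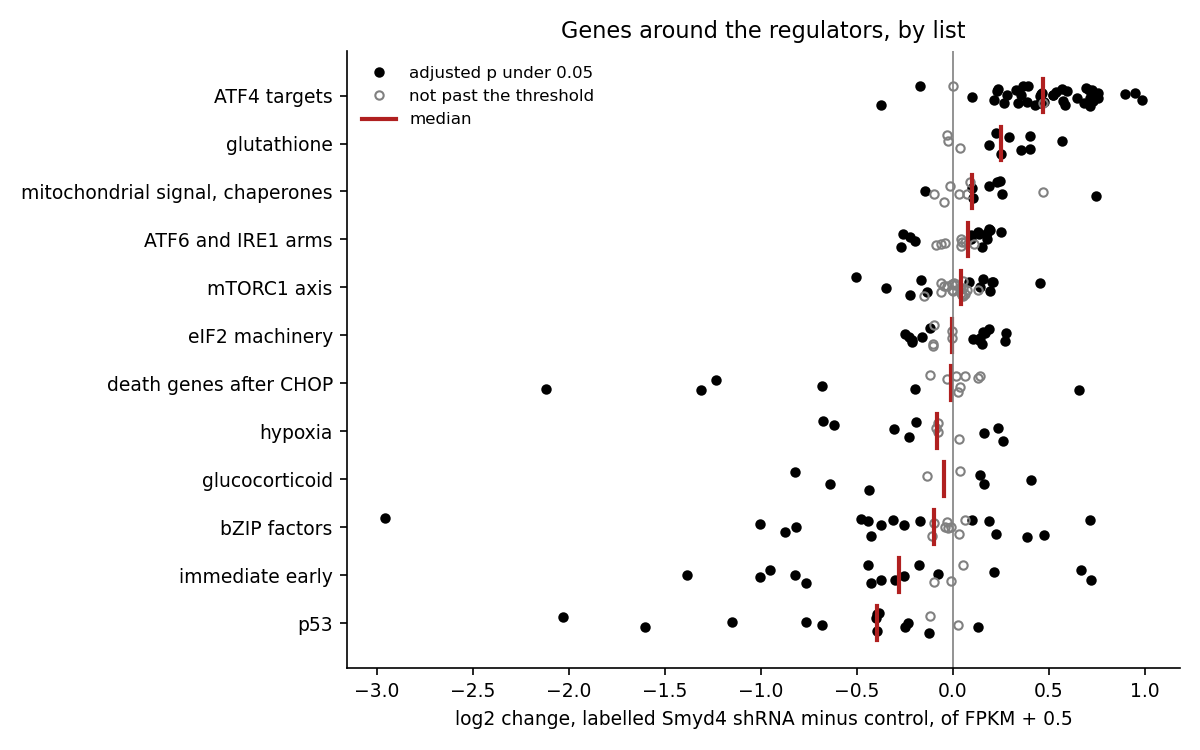
Log2 change of FPKM + 0.5 (horizontal axis) of the tested genes of 12 lists around the regulators, with genes past an adjusted p of 0.05 filled, others open and the median of each list in red. The ATF4 targets lie to the right with a median of 0.47 and the p53 list to the left with a median of -0.39.

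Upstream of Atf4 the changes were small and mixed. Of 20 tested genes of eIF2, its exchange factor eIF2B, its kinases and its phosphatase, 9 were higher, 6 lower and 5 short of the threshold; the median log2 change was -0.00 and the range -0.25 to 0.28. Over all tested genes 25.1% were higher and 23.3% lower, with a median of 0.02. None of the 4 kinases was called higher. Eif2ak3, the endoplasmic reticulum kinase PERK, fell from 4.73 ± 0.273 to 4.01 ± 0.213 FPKM and Eif2ak4, the amino acid sensor GCN2, from 4.99 ± 0.0198 to 4.41 ± 0.111 FPKM (limma, adjusted p = 0.0163 and 0.0124). The Eif2ak3 call was lost without control replicate 2 (limma, adjusted p = 0.0580). Eif2ak1, the haem-regulated kinase, stood at 8.06 and 8.05 FPKM. Eif2ak2, the kinase PKR, stood at 9.74 and 9.06 FPKM and passed only without labelled replicate 3 (limma, adjusted p = 0.184 with all libraries and 0.0130 without it). Dnajc3, which inhibits PERK and PKR, rose from 30.7 ± 0.677 to 37.2 ± 0.538 FPKM, and Eif2s2, the beta subunit of eIF2, from 43.3 ± 0.123 to 52.7 ± 1.38 FPKM. The phosphatase catalytic subunits Ppp1cb (16.9 to 14.1 FPKM) and Ppp1cc (67.3 to 58.0 FPKM) fell. The more abundant catalytic subunit Ppp1ca rose from 341 to 367 FPKM (limma, adjusted p = 0.0175), so the subunits had no common direction. Ppp1ca was named after its value was seen. The phosphorylation of eIF2 was not measured.

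The closest relatives of the regulators did not follow them as one. Ppp1r15b, the constitutive counterpart of Ppp1r15a, rose from 29.2 ± 0.654 to 33.3 ± 0.435 FPKM while Ppp1r15a fell, and it was the more abundant of the pair in every library. Trib1 (6.79 to 4.87 FPKM) and Trib2 (2.41 to 0.588 FPKM), pseudokinases that promote protein degradation, fell while Trib3 rose. Trib2 reached the mean of 1 FPKM needed for testing only through the control libraries, where it is high. Sesn3 fell from 4.17 ± 0.152 to 2.32 ± 0.208 FPKM, opposite to Sesn2. Sesn1 was at 13.5 ± 0.250 and 14.8 ± 0.880 FPKM, a call (limma, adjusted p = 0.0440) that was lost in 10 of 18 alternatives, among them the removal of any control library or of labelled replicate 1 or 3, with adjusted p up to 0.125. Chac2, a glutathione-degrading relative of Chac1 with lower activity, rose from 13.9 ± 1.18 to 18.5 ± 0.843 FPKM. Ddit4l, the relative of Ddit4, stood at 0.127 and 0.0321 FPKM, under the minimum for testing. Of the ATF relatives, Jdp2, a repressor closely related to Atf3, rose from 65.1 ± 2.63 to 90.6 ± 2.34 FPKM, and Atf7 went from 6.93 to 6.10 FPKM (limma, adjusted p = 0.00423). Atf2 stood at 7.29 and 6.78 FPKM and passed only without labelled replicate 2 (limma, adjusted p = 0.0405) and in edgeR (adjusted p = 0.0349), against 0.0942 in limma with all libraries.

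The bZIP factors, which can pair with ATF4, ATF3 and CHOP, were counted in the same way. Of 25 tested, 6 were higher, 11 lower and 8 short of the threshold; their median log2 change was -0.10. The share higher lay near the 25.1% of all tested genes, and the 11 lower compare with 23.3%. Cebpg, a partner of ATF4 at amino acid response elements, rose from 12.7 ± 0.262 to 16.7 ± 0.172 FPKM (limma, adjusted p = 2.3e-05), and Cebpb, a partner of ATF4 and CHOP, fell from 52.1 ± 1.43 to 40.3 ± 2.996 FPKM (adjusted p = 0.000698). The largest fall was that of Cebpd, an acute phase factor, from 30.4 ± 1.39 to 3.48 ± 0.0674 FPKM, and Junb, a subunit of AP-1, fell from 101.3 ± 4.52 to 50.2 ± 1.77 FPKM (limma, adjusted p = 2.3e-09 and 6.8e-07). In the labelled libraries Atf5 was the most abundant of the bZIP genes of the plot of bZIP levels, with Atf4 next.

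**Figure D5:**
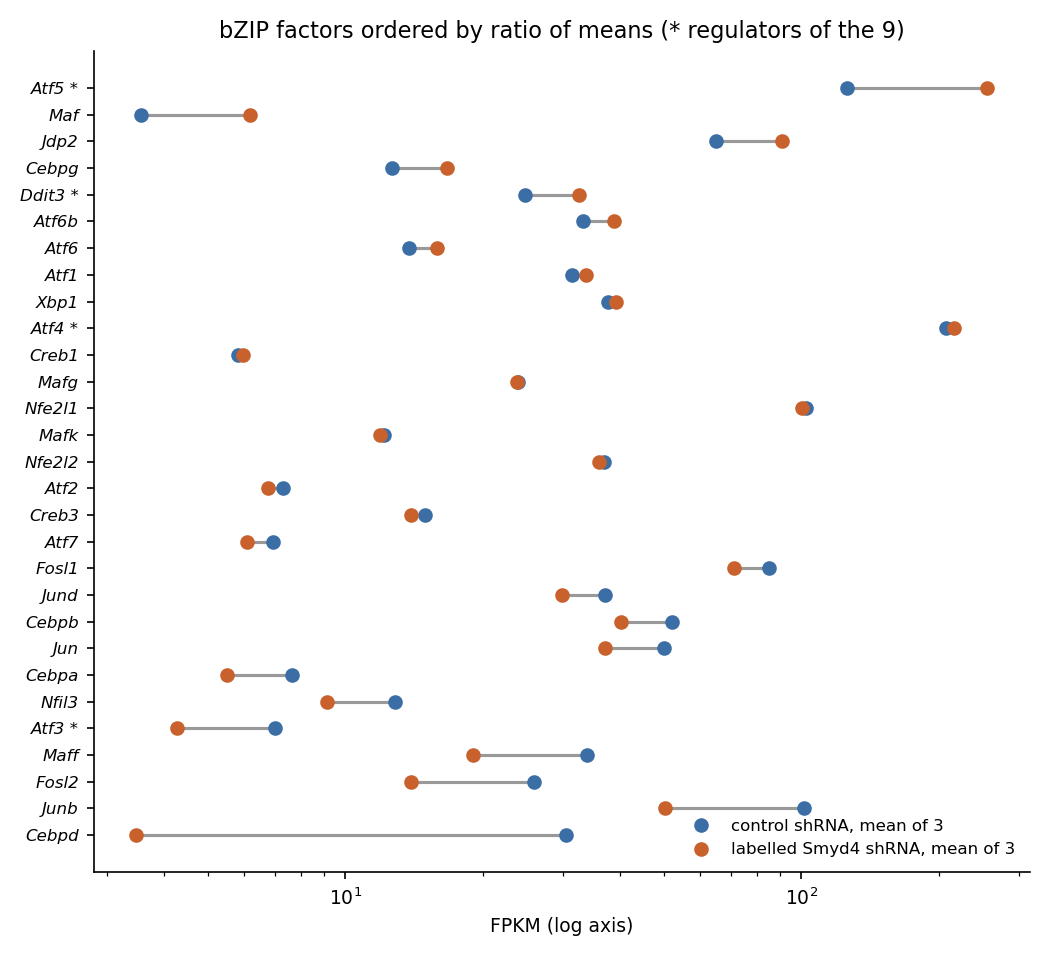
Mean FPKM (horizontal log axis) of the tested bZIP factors and of the 4 bZIP regulators (asterisks) in control (blue) and labelled (orange) libraries, ordered by the ratio of the means. Atf5 stands at the top with 126 and 256 FPKM, Atf4 shows nearly coincident points, and Cebpd is at the bottom with 30.4 and 3.48 FPKM.

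Genes on which the regulators act were compared by the same count. Of 32 tested genes of mTORC1 and its regulators, where Ddit4 and Sesn2 act, 7 were higher, 5 lower and 20 short of the threshold; the median log2 change was 0.04. Fewer of them were called than the 48.3% of all tested genes (25.1% higher, 23.3% lower). Eif4ebp1, a translation inhibitor controlled by mTORC1 and also an ATF4 target, rose from 194 ± 5.96 to 267 ± 13.7 FPKM, and Eif4ebp2 went from 54.2 ± 0.181 to 59.9 ± 0.572 FPKM. Castor2, an arginine sensor, fell from 8.77 ± 0.408 to 6.03 ± 0.388 FPKM, and Prkaa1, a catalytic subunit of AMPK, from 39.4 ± 0.398 to 30.8 ± 1.13 FPKM. The 5 falls became 3 without control replicate 1 or 3 or without labelled replicate 2 or 3. Levels of mRNA do not give the activity of mTORC1.

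Of 14 death-related genes described downstream of CHOP, 1 was higher, 5 lower and 8 did not pass, and the 6 called lie near the 48.3% of all tested genes (25.1% higher, 23.3% lower). The rise was Ero1l, an oxidase of the endoplasmic reticulum, from 31.3 ± 0.296 to 49.7 ± 0.883 FPKM (limma, adjusted p = 5.3e-07). The count of rises was 2 without labelled replicate 2. Pmaip1, which encodes the pro-apoptotic NOXA, fell from 3.48 ± 0.205 to 0.419 ± 0.108 FPKM and Casp12, a caspase tied to endoplasmic reticulum stress, from 6.64 ± 0.178 to 2.38 ± 0.110 FPKM (limma, adjusted p = 1.8e-06 and 4.8e-07). Pmaip1 reached the minimum mean of 1 FPKM only through the control libraries, so its place in the count rests on the group where it is high. Gadd45a, a growth arrest gene, fell from 17.4 to 10.7 FPKM. Tnfrsf10b, the death receptor gene induced by CHOP, was at 14.9 ± 0.750 and 16.5 ± 1.05 FPKM with overlapping groups and did not pass (limma, adjusted p = 0.0577); it was named after its value was seen.

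Around Chac1, 8 of 11 tested genes of glutathione synthesis and breakdown rose, none fell and 3 did not reach the threshold, against 25.1% of all tested genes higher and 23.3% lower; the median log2 change was 0.25. No tested member was lower at an unadjusted p under 0.05 in limma either. The 8 rises include Ggt7 (0.790 to 1.21 FPKM), named after its value was seen. Ggt7 reached the minimum mean of 1 FPKM only through the labelled libraries, so its place in the count rests on the group where it is high. Slc7a11, the cystine importer, rose from 10.7 ± 0.157 to 16.1 ± 0.955 FPKM, Gclm, a subunit of the rate-limiting synthetic enzyme, from 14.3 ± 0.328 to 18.5 ± 0.236 FPKM, and the peptidase Anpep from 19.7 ± 0.816 to 24.3 ± 0.120 FPKM (limma, adjusted p = 2.6e-05, 3.7e-05 and 0.000243). Leaving out labelled replicate 1, 2 or 3 in turn gave 1 fall, that of Oplah, a 5-oxoprolinase (limma, adjusted p = 0.00801, 0.00791 and 0.00519). With all libraries its mean lay under the minimum of 1 FPKM and it was not tested; edgeR and DESeq2 called 2 falls, Oplah and Ggct, a gamma-glutamylcyclotransferase. Both were named after their values were seen.

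The other signals that can reach these regulators were read from lists of their own. In the ATF6 and IRE1 arms of the unfolded protein response 10 of 22 genes were higher, 4 lower and 8 did not pass, with changes between -0.27 and 0.25 on the log2 scale, against 25.1% of all tested genes higher and 23.3% lower. Hspa5, the chaperone BiP, rose from 230.3 ± 1.05 to 261 ± 3.43 FPKM and Pdia6 from 108 ± 3.06 to 123 ± 2.40 FPKM. Pdia4 fell from 67.8 to 56.1 FPKM and Edem1, which acts in protein disposal, from 17.6 to 14.6 FPKM. In the mitochondrial list 7 of 15 rose, 1 fell and 7 did not pass. The 8 called lie near the 48.3% of all tested genes, but the directions are less even. The 7 rises compare with 25.1% of all tested genes higher, and the 1 fall with 23.3% lower. The 7 rises include Chchd10 (0.656 to 1.45 FPKM), named after its value was seen. Chchd10 reached the minimum mean of 1 FPKM only through the labelled libraries. The protease gene Lonp1 rose from 97.6 ± 3.14 to 117 ± 0.877 FPKM and the chaperonin gene Hspd1 from 284 ± 5.38 to 338 ± 6.50 FPKM, while Afg3l2, a protease of the inner membrane, fell from 26.8 to 24.2 FPKM. Without labelled replicate 3 the falls of this list numbered 2. Oma1 and Dele1, which relay mitochondrial stress to the response, stood at 6.52 and 6.91 FPKM and at 12.6 and 13.5 FPKM and did not pass (limma, adjusted p = 0.359 and 0.243); both were named after their values were seen.

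The p53 list went down. Of 15 genes 12 fell, against 23.3% of tested genes called lower, 1 was higher and 2 missed the threshold; the median log2 change was -0.39. Sesn2 and Ddit4, which p53 can also induce, rose in the same libraries. Plk2, a kinase induced by p53, fell from 28.4 ± 0.585 to 9.04 ± 0.501 FPKM and the death receptor gene Fas from 4.68 ± 0.181 to 0.774 ± 0.195 FPKM (limma, adjusted p = 9.5e-08 and 2.8e-06). Fas reached the minimum mean of 1 FPKM only through the control libraries, so its place among the 12 falls rests on the group where it is high. The rise was Sesn1, with the reservation given above. The call of Sesn1, and so the single rise, was lost without any 1 of the control libraries and without labelled replicate 1 or 3.

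Immediate early genes, the class to which Atf3 and Ppp1r15a also belong, showed 12 of 18 lower, 3 higher and 3 short of the threshold, against 23.3% of all tested genes lower and 25.1% higher; the median log2 change was -0.28. Ier3, a survival gene, fell from 79.6 ± 2.71 to 30.1 ± 0.171 FPKM (limma, adjusted p = 2.9e-08). The zinc finger factors Egr2 and Egr3 went the other way, from 3.13 ± 0.0681 to 5.48 ± 0.0457 FPKM and from 3.33 ± 0.379 to 5.57 ± 0.323 FPKM. The falls of Atf3 (-0.65) and Ppp1r15a (-0.43) lay below the median of this list on the log2 scale.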

How the data were processed

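Per the labels, total RNA of 6 HL-1 samples, 3 per shRNA, was extracted with Trizol and made into Illumina libraries. The submitters' processing notes name TopHat2 2.0.9, Bowtie2 2.0.6 and the build GRCm38; no source used here gives the counter, annotation, strandedness or test. The authors deposited FPKM for 22246 genes. A second table that the authors deposited covers 5616 genes and holds a normalized signal (reads divided by 1 size factor per library), log2 fold changes and p-values; 8 of the 9 regulators are in it and Atf4 is not. Tested on the deposited values, the FPKM carry the same size factors. All signal values (100%) were whole multiples of 1 step per library within 1e-04, so reads could be recovered. For 3323 genes, Atf4 among them, the smallest possible length was used, which makes their reads a lower bound.

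Values were taken as log2(FPKM + 0.5) for genes that averaged 1 FPKM or more, and compared with limma 3.58.1 (R 4.3.3, trend), with Benjamini-Hochberg adjustment over all 11325 tested genes. Folds of low genes are understated on this scale. The fit was tested on simulated data. edgeR 4.0.16 and DESeq2 1.42.0 on recovered reads were alternatives added after the data were seen. Regulators, gene lists and the rule for naming genes (in each list at most 4 called genes, ranked by adjusted p and taking 2 of each direction before others, plus kinases, relatives, Cebpb and Cebpg, and the 3 genes most like Atf4 and Atf3) were chosen with earlier results of these data known. Gene symbols matched 22134 identifiers.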

Additional observations from a re-analysis of the deposited data

How the results depend on the processing

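All 9 regulators kept their direction and their side of the threshold under each of 18 alternatives (2 pseudocounts, 2 filters, 3 scalings, 2 variance models, the replicate block, 6 single libraries left out, edgeR and DESeq2). Log2 changes ranged from 0.98 to 1.04 for Atf5, 0.86 to 0.89 for Trib3, 0.77 to 0.83 for Chac1, 0.58 to 0.61 for Ddit4, 0.34 to 0.41 for Ddit3, 0.29 to 0.35 for Sesn2, 0.03 to 0.07 for Atf4 (adjusted p from 0.0587 to 0.406), -0.72 to -0.60 for Atf3 and -0.48 to -0.40 for Ppp1r15a. Same-numbered libraries showed no shared deviation (correlations of their deviations -0.03, 0.02 and 0.01), which cannot tell whether they were handled as pairs. With the replicate block 5141 genes were called against 5474, each of 11325 tested, and the 8 regulators called kept their calls. The numbers tested differed in the other methods: edgeR called 6824 of 13775 genes and DESeq2 5569 of 17068.

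Some small counts moved, and the cause was not tested except for the stricter filter, which tests fewer genes. When only genes averaging 5 FPKM or more were tested, the falls were 3 in the eIF2 list, 2 in the list of relatives and 2 in the death list, with 2 rises in the death list and 1 among immediate early genes. The death list had 3 rises after quantile normalization, 2 with robust variances and 3 in edgeR. The mitochondrial list had 2 falls in edgeR and in DESeq2. The p53 list had 0 rises without a filter, with median-of-ratios or TMM-like scaling, without a trend and in DESeq2. The glutathione list had 1 fall without a filter and 2 in edgeR and in DESeq2. Leaving out single libraries gave 1 to 2 falls among ATF4 targets, 3 to 4 in the mTORC1 list, 1 to 2 in the mitochondrial list and 0 to 1 in the glutathione list, and 1 to 2 rises in the death list and 0 to 1 in the p53 list. Eif2ak1, near no change at -0.00, changed sign after quantile normalization (0.0147) and without single libraries (from -0.0109 to 0.00843).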

Other observations

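Ddit4 is also induced by hypoxia and by glucocorticoids, and those lists showed no common direction. Of 12 tested hypoxia-responsive genes 3 were higher, 5 lower and 4 did not pass, where 25.1% of all tested genes were higher and 23.3% lower. Vegfa, the vascular growth factor, rose from 59.7 ± 0.703 to 70.4 ± 0.618 FPKM and P4ha1, a collagen prolyl hydroxylase subunit, from 53.7 ± 0.380 to 64.6 ± 1.95 FPKM, while Bnip3, a mitophagy receptor, fell from 31.9 ± 0.264 to 19.7 ± 0.551 FPKM and the glucose transporter gene Slc2a1 from 61.5 ± 1.26 to 39.9 ± 0.754 FPKM (SD, n = 3). Of 8 tested glucocorticoid-responsive genes 3 were higher, 3 lower and 2 did not pass, beside the same 25.1% and 23.3%. Fkbp5, a chaperone of the receptor, rose from 8.82 ± 0.359 to 11.9 ± 0.445 FPKM and Sgk1 from 30.5 ± 1.09 to 33.7 ± 0.276 FPKM, while Errfi1, an inhibitor of the EGF receptor, fell from 81.4 ± 1.66 to 52.1 ± 1.06 FPKM and the phosphatase gene Dusp1 from 16.9 ± 1.30 to 9.29 ± 0.258 FPKM.

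Among the 7833 genes that averaged 5 FPKM or more, the profiles nearest to that of Atf4 over the 6 libraries, by root mean square difference of log2 values after setting the control mean to 0, were Cops7a (0.00899), Cnpy2 (0.0110) and Arid1b (0.0126). Nearest to Atf3 were Gm14137 (0.0251), Wdr36 (0.0325) and Cd44 (0.0340), which fell from 8.51 to 5.24, from 44.1 to 27.3 and from 75.6 to 48.5 FPKM.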
